A study of Vitis vinifera with 6 samples.

Results

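Of the 29971 genes in the expression table of grapevine terminal buds, 10 genes of 4 families of pathogenesis-related (PR) proteins were followed by their identifiers. They were 2 PR1 genes, 2 beta-1,3-glucanase genes, 2 thaumatin-like genes and 4 class IV chitinase genes, picked by identifier and not by a threshold on any value, though with earlier results of these data known. The test was limited to genes that averaged 1 FPKM or more across the 6 libraries, which 8 of the 10 did, and the chitinase genes VIT_05s0094g00320 and VIT_05s0094g00330 did not reach this limit. FPKM scales the fragments of a gene by its transcript length and by the size of the library, so it compares genes of different length on one scale.

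The buds came from autotetraploid (4X) and diploid (2X) vines of the Vitis vinifera accession ‘Jingyanjing’, with 3 RNA-Seq libraries for each ploidy. The 4X vines had been induced with colchicine in the axillary buds of tissue-cultured plantlets of the same accession, and both ploidies grew in the same vineyard under standard care. The 4X plants were propagated from several lines, and which line gave each library was not given in the sources used here. Terminal buds were taken about a week before those of 4X abscised, and each library was pooled from at least 3 buds. The question asked of each gene was whether its transcript level differed between the ploidies. The identifiers carry no description in the table, so neither the family names nor the bud label was set against an annotation or a marker gene.

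PR proteins are mostly small secreted proteins that plant cells make in response to pathogens, to wounding and to hormones such as salicylic acid, jasmonic acid and ethylene. PR1 is widely used as a marker of salicylic acid signalling, chiefly from work in tobacco and Arabidopsis. Beta-1,3-glucanases cut callose and fungal wall glucans, chitinases cut the chitin of fungal walls, and thaumatin-like proteins (the PR5 group) include antifungal and osmotin-like proteins. In ripe grape berries, thaumatin-like proteins and class IV chitinases are among the most abundant soluble proteins and cause haze in white wine.

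The 10 genes differed in level far more than the ploidies did. VIT_03s0088g00810 (PR1) was the most abundant of them in 5 of the 6 libraries, and in 2X replicate 3 the glucanase VIT_08s0007g06060 was above it with 100.2 against 89.1 FPKM. By mean FPKM, with a listed 0 counted as 0, it was followed by the 2 glucanases, the chitinases VIT_05s0094g00340 and VIT_05s0094g00360, the thaumatin-like VIT_02s0025g04310 and VIT_02s0025g04250, the PR1 VIT_03s0088g00710, and the chitinases VIT_05s0094g00330 and VIT_05s0094g00320. This order was the same in 4X and 2X except for the glucanases, which changed places. In 4X, neighbours in the order overlapped in their ranges apart from VIT_03s0088g00810 over the glucanases, VIT_02s0025g04250 over VIT_03s0088g00710, and VIT_03s0088g00710 over VIT_05s0094g00330. Summed over the 10 genes, the share of all FPKM was 0.113%, 0.0545% and 0.0521% in the 4X libraries and 0.0258%, 0.0383% and 0.0313% in the 2X libraries. The lowest 4X share thus lay above the highest 2X share, and VIT_03s0088g00810 made up 78.3%, 50.9% and 45.5% of the sum in 4X replicates 1, 2 and 3, and 36.1%, 38.7% and 25.4% in 2X replicates 1, 2 and 3.

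The clearest differences were in 1 PR1 gene and in the thaumatin-like genes, which were higher in 4X by their means. VIT_03s0088g00810 and VIT_02s0025g04250 did not overlap between ploidies, while VIT_03s0088g00710, VIT_02s0025g04310, the glucanases and the chitinases did. Among the overlapping genes, VIT_03s0088g00710, VIT_02s0025g04310 and the glucanase VIT_08s0007g06060 were called higher in 4X only when each library had its own weight in the test. That fit called 12.5% of all genes tested higher, and with equal weights these genes were not called. None of the 8 genes tested was called in either direction at a Benjamini-Hochberg adjusted p under 0.05 in limma, a linear model fitted on log2(FPKM + 1) that shares variance information between genes. In the same fit 16 of 18119 genes were called (0.0883%), so a count of 0 among 8 stands beside a background near 0. The paper's own test, with Cufflinks, called far more genes as different. At an unadjusted p under 0.05, 3 of the 8 were higher in 4X (VIT_03s0088g00810, VIT_02s0025g04250 and VIT_02s0025g04310) and 0 were lower, where 7.79% of all genes tested were higher and 6.53% lower. The 4X values were all higher than the 2X values in 2 of the 8 (VIT_03s0088g00810 and VIT_02s0025g04250), against 11.2% of all genes tested. The median log2 fold change, 4X over 2X, was 0.70 over the 8 genes and 0.01 over all genes tested. With 2 or 3 genes behind each of these counts, they describe the genes named and not their families. In whole buds, a lower level from fewer cells of a type cannot be told apart from less RNA per cell.

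**Figure D1:**
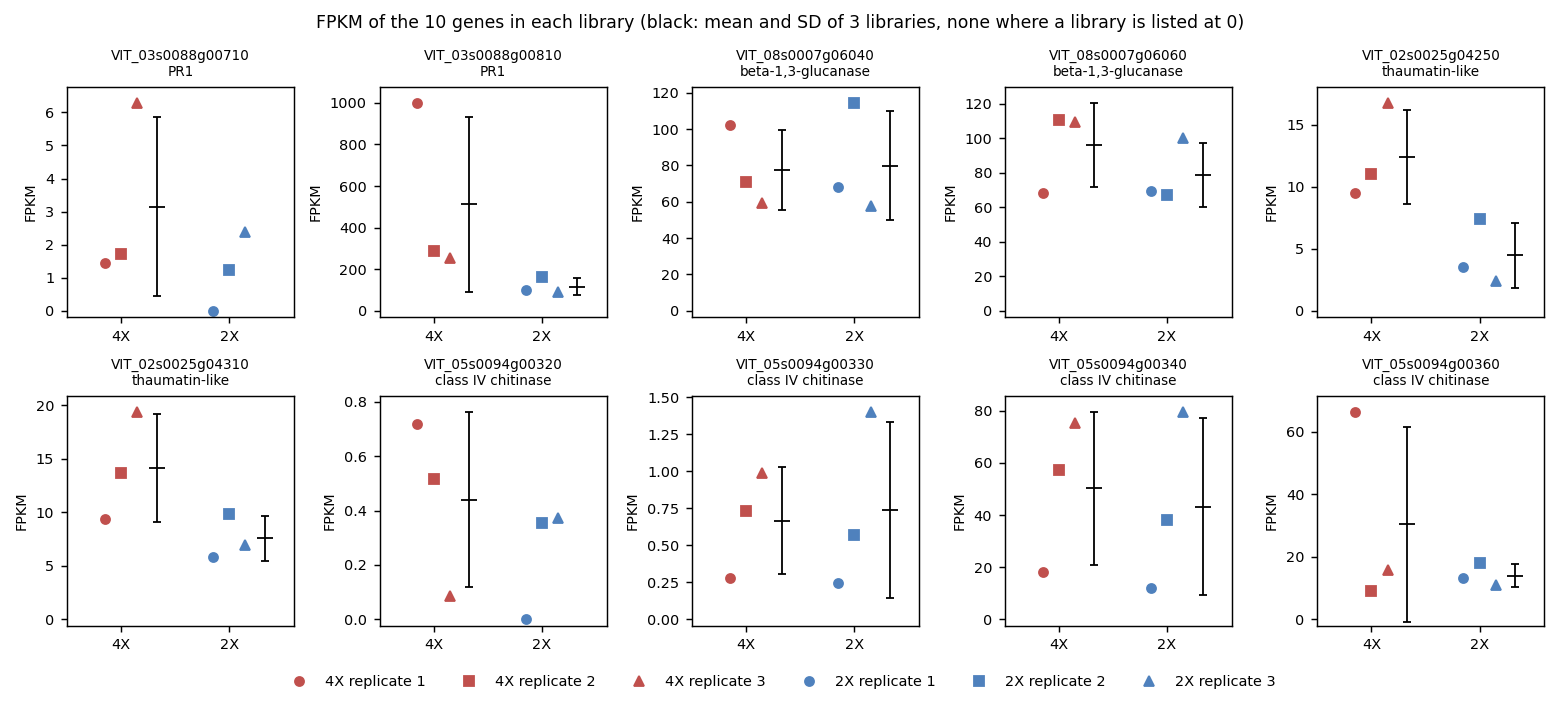
FPKM (vertical axis, a scale of its own in each panel) of the 10 genes in the 3 4X libraries (red) and the 3 2X libraries (blue), with the replicate number as the symbol and the mean and SD in black where no library is listed at 0. The 4X libraries of VIT_03s0088g00810 lie between 253 and 997 FPKM, all above the 2X libraries, and those of VIT_02s0025g04250 are likewise all above 2X, whereas the other 8 genes overlap between ploidies.

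Within the PR1 pair alone, VIT_03s0088g00810, on chromosome 3 by its identifier, held 97.4% to 100% of the summed FPKM in every library. It had 997, 285 and 253 FPKM in 4X replicates 1, 2 and 3, against 97.6, 162 and 89.1 FPKM in 2X replicates 1, 2 and 3. All 4X libraries were above all 2X libraries, and 4X replicate 1 stood 3.70-fold above the mean of the other 4X libraries. Ordered by FPKM among all 29971 genes, it was at rank 139, 601 and 729 in the 4X libraries and at rank 1970, 1173 and 2272 in the 2X libraries. It averaged 512 ± 421 FPKM over the 4X libraries and 116 ± 39.8 FPKM over the 2X libraries (SD, n = 3 each), a ratio of 4.41. Its log2 fold change was 1.88 with a standard error (SE) of 0.53 and an adjusted p of 0.209 in limma (95% interval 0.63 to 3.14). Without 4X replicate 1 the ratio was 2.32 and the log2 fold change 1.25 (95% interval 0.63 to 1.88), with an adjusted p of 0.0552 in limma. The gene thus stayed higher in 4X without its highest library, by a smaller amount that also missed the threshold.

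The other PR1 gene, VIT_03s0088g00710, was scarce. It had 1.45, 1.71 and 6.27 FPKM in 4X replicates 1, 2 and 3, against 1.22 and 2.37 FPKM in 2X replicates 2 and 3, and it was listed at 0 in 2X replicate 1. The ploidies overlapped, and its highest value was in 4X replicate 3 and not in replicate 1, where VIT_03s0088g00810 peaked. Its log2 fold change was 0.90 with an SE of 0.57 and an adjusted p of 0.529 in limma. The size depends on the treatment of these low values, with 1.92 at a pseudocount of 0.1, 2.05 with array weights, 0.41 without 2X replicate 1 and 0.40 without 4X replicate 3. As many as 87 genes are listed at 0 in some library while all their other libraries have at least 5 FPKM, so a listed 0 can be a failed estimate, and no mean is printed for this gene. Its place in the order by mean and its log2 fold change still count the listed 0 as a value.

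The beta-1,3-glucanases, on chromosome 8, had similar summed levels in all libraries. Their sum was 170, 182 and 169 FPKM in 4X replicates 1, 2 and 3, against 138, 181 and 158 FPKM in 2X replicates 1, 2 and 3, a ratio of means of 1.09. The ploidies overlapped by this sum, with the 4X libraries within a narrow range. Each gene of the pair varied more than the sum did, and the genes varied in opposite ways.

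VIT_08s0007g06040 had 102, 70.9 and 59.2 FPKM in 4X replicates 1, 2 and 3, against 68.1, 114 and 57.6 FPKM in 2X replicates 1, 2 and 3. Its highest and its lowest value were both in 2X. It averaged 77.4 ± 22.2 FPKM over the 4X libraries and 79.9 ± 30.1 FPKM over the 2X libraries (SD, n = 3 each), with a log2 fold change of -0.02 (SE 0.29) with an adjusted p of 0.988 in limma. The 95% interval of -0.72 to 0.68 leaves room for a difference of either sign, and the sign turned when 2X replicate 2, 4X replicate 2 or 4X replicate 3 was left out.

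VIT_08s0007g06060 had 68.3, 110.6 and 109 FPKM in 4X replicates 1, 2 and 3, against 69.4, 67.0 and 100.2 FPKM in 2X replicates 1, 2 and 3. Here 4X replicate 1 sat among the low 2X libraries, while 4X replicates 2 and 3 were above all of 2X. It averaged 96.1 ± 24.1 FPKM over the 4X libraries and 78.9 ± 18.5 FPKM over the 2X libraries (SD, n = 3 each), with a log2 fold change of 0.27 (SE 0.23) with an adjusted p of 0.658 in limma. Without 4X replicate 1 the log2 fold change was 0.50 (95% interval 0.05 to 0.94), with an adjusted p of 0.191 in limma. With array weights it was 0.57 with an adjusted p of 0.0260 in limma. VIT_08s0007g06040 made up 59.9%, 39.1% and 35.1% of the pair in 4X replicates 1, 2 and 3, and 49.5%, 63.0% and 36.5% in 2X replicates 1, 2 and 3, so which glucanase led depended on the library and not on the ploidy. Over the 6 libraries the Pearson correlation of log2(FPKM + 1) between them was -0.75, given as a description since all genes share the libraries.

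The thaumatin-like genes, on chromosome 2, were low in the buds and were higher in 4X as a pair. Their summed level was 18.9, 24.7 and 36.1 FPKM in 4X replicates 1, 2 and 3, against 9.41, 17.3 and 9.42 FPKM in 2X replicates 1, 2 and 3. All 4X sums were above all 2X sums, with a ratio of means of 2.21. Unlike for VIT_03s0088g00810, 4X replicate 1 was the lowest of the 4X libraries, and without it the ratio was 2.53.

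VIT_02s0025g04250 had 9.51, 11.0 and 16.7 FPKM in 4X replicates 1, 2 and 3, against 3.56, 7.43 and 2.42 FPKM in 2X replicates 1, 2 and 3. The ploidies did not overlap, and the gap between them was 9.51 in the lowest 4X library against 7.43 in the highest 2X library. It averaged 12.4 ± 3.81 FPKM over the 4X libraries and 4.47 ± 2.63 FPKM over the 2X libraries (SD, n = 3 each), a ratio of 2.78. Its log2 fold change was 1.36 with an SE of 0.35 and an adjusted p of 0.190 in limma (95% interval 0.52 to 2.21). Leaving out 4X replicate 1 gave 1.52 and an adjusted p of 0.0923 in limma.

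VIT_02s0025g04310 had 9.34, 13.7 and 19.4 FPKM in 4X replicates 1, 2 and 3, against 5.85, 9.85 and 6.995 FPKM in 2X replicates 1, 2 and 3. Only 4X replicate 1 reached into the 2X range, below 2X replicate 2. It averaged 14.1 ± 5.02 FPKM over the 4X libraries and 7.57 ± 2.06 FPKM over the 2X libraries (SD, n = 3 each), a ratio of 1.87, with a log2 fold change of 0.79 (SE 0.28) with an adjusted p of 0.269 in limma. Without 4X replicate 1 it was 1.04 with an adjusted p of 0.0709 in limma. Both genes had their lowest 4X value in replicate 1 and their highest in replicate 3, and their correlation over the 6 libraries was 0.92. VIT_02s0025g04250 held 50.4%, 44.6% and 46.4% of the pair in the 4X libraries and 37.9%, 43.0% and 25.7% in the 2X libraries, so all 4X shares were above all 2X shares.

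**Figure D2:**
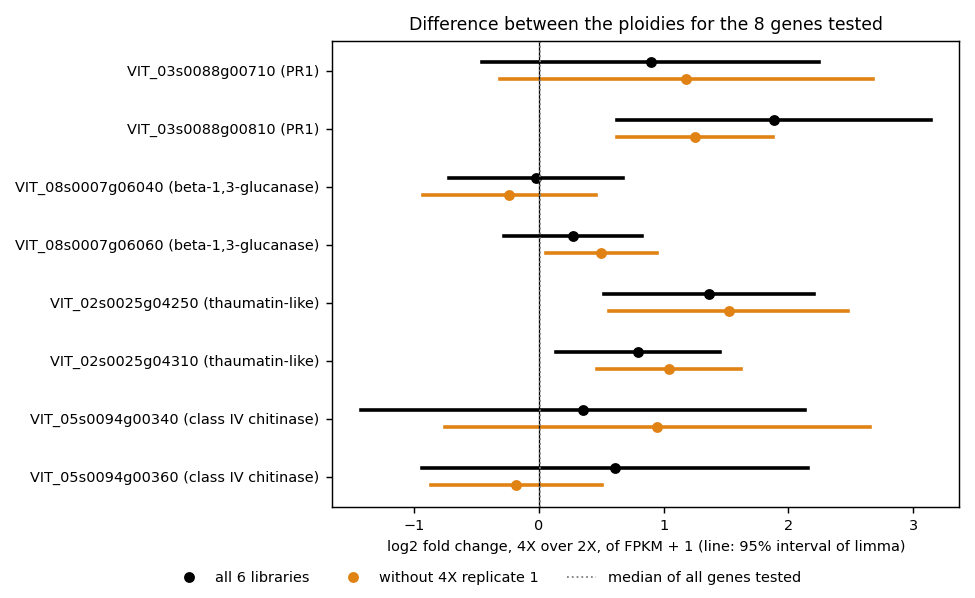
Log2 fold change, 4X over 2X, of FPKM + 1 for the 8 genes tested, with the 95% interval of limma, from all 6 libraries (black) and without 4X replicate 1 (orange). The dotted line is the median of all genes tested, 0.01. The intervals of VIT_03s0088g00810 and of the thaumatin-like genes lie above 0 in both fits, and the estimate of VIT_05s0094g00360 changes sign.

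The class IV chitinases followed here lie together on chromosome 5 by their identifiers, and VIT_05s0094g00340 and VIT_05s0094g00360 held nearly all of their summed FPKM. The family sum was 85.5, 67.4 and 92.3 FPKM in 4X replicates 1, 2 and 3, against 25.5, 56.8 and 92.0 FPKM in 2X replicates 1, 2 and 3. The ranges overlapped, with 2X replicate 3 at the level of the highest 4X library, and the ratio of means was 1.41. How reads that fit several near-identical genes were assigned was not given in the sources used here, so the split between neighbouring chitinases, and likewise between the members of each other pair, is uncertain.

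VIT_05s0094g00340 had 18.2, 57.1 and 75.3 FPKM in 4X replicates 1, 2 and 3, against 12.1, 38.0 and 79.4 FPKM in 2X replicates 1, 2 and 3. It varied 6.55-fold within 2X and 4.13-fold within 4X, so the difference between the means was far smaller than the spread. It averaged 50.2 ± 29.2 FPKM over the 4X libraries and 43.1 ± 33.9 FPKM over the 2X libraries (SD, n = 3 each), with a log2 fold change of 0.35 (SE 0.75) with an adjusted p of 0.884 in limma. The estimate turned negative without 2X replicate 1 or without 4X replicate 3.

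VIT_05s0094g00360 had 66.3, 8.98 and 15.8 FPKM in 4X replicates 1, 2 and 3, against 13.2, 17.9 and 10.9 FPKM in 2X replicates 1, 2 and 3. A single library, 4X replicate 1, was high, and 4X replicate 2 was the lowest of all. It averaged 30.4 ± 31.3 FPKM over the 4X libraries and 13.98 ± 3.60 FPKM over the 2X libraries (SD, n = 3 each), with a log2 fold change of 0.61 (SE 0.65) with an adjusted p of 0.734 in limma. Without 4X replicate 1 the mean was 12.4 FPKM in 4X and the log2 fold change was -0.18, with an adjusted p of 0.769 in limma.

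The remaining chitinases were scarce in every library. VIT_05s0094g00320 had 0.716, 0.516 and 0.0877 FPKM in 4X replicates 1, 2 and 3, against 0.353 and 0.373 FPKM in 2X replicates 2 and 3, and it was listed at 0 in 2X replicate 1. VIT_05s0094g00330 had 0.279, 0.732 and 0.989 FPKM in 4X replicates 1, 2 and 3, against 0.249, 0.569 and 1.40 FPKM in 2X replicates 1, 2 and 3. Neither was separated by ploidy, and exact two-sided permutation tests of the 3 4X against the 3 2X libraries gave p = 0.4 for VIT_05s0094g00320 and p = 1 for VIT_05s0094g00330. The same exact permutation test reached 0.1, the smallest p that this design allows, for VIT_03s0088g00810 and VIT_02s0025g04250, and between 0.2 and 1 for the other 6 genes tested, so it cannot pass 0.05 for any gene.

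**Figure D3:**
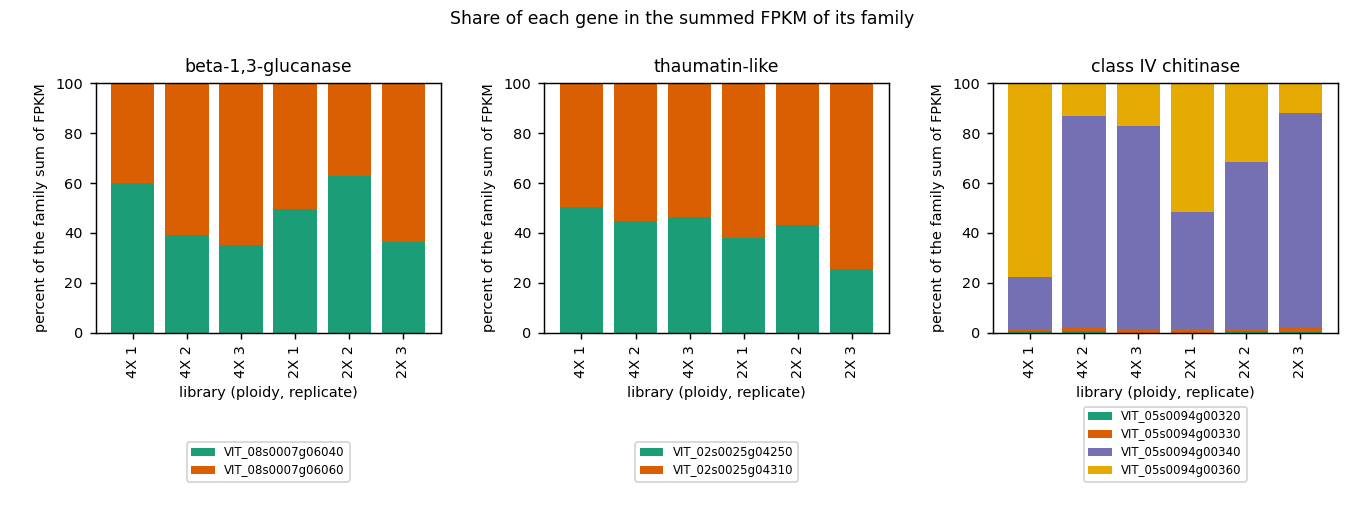
Share of each gene in the summed FPKM of its family (percent, stacked to 100), by library, for the glucanases, the thaumatin-like genes and the class IV chitinases. VIT_05s0094g00360 makes up 77.5% of the chitinase sum in 4X replicate 1 and 13.3% and 17.2% in 4X replicates 2 and 3, and in 2X replicates 1, 2 and 3 it makes up 51.6%, 31.6% and 11.8%.

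Within the chitinase family the leading gene changed with the library. VIT_05s0094g00340 made up 21.3%, 84.8% and 81.7% of the family sum in 4X replicates 1, 2 and 3, and 47.5%, 66.8% and 86.3% in 2X replicates 1, 2 and 3. VIT_05s0094g00360 led in replicate 1 of both ploidies, where VIT_05s0094g00340 was at its lowest. The replicate numbers were not found to pair the libraries across ploidies, so this is a description of single libraries. The correlation of log2(FPKM + 1) over the 6 libraries was -0.49 between these genes and 0.94 between VIT_05s0094g00340 and the scarce VIT_05s0094g00330.

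The defence genes varied more between libraries of one ploidy than most genes did. The range of log2(FPKM + 1) over the 3 libraries of a ploidy had a median of 0.31 in 4X and 0.28 in 2X over the 18119 genes tested. All 8 genes tested were above that median in both ploidies. The 90th percentile of the range was 0.91 in 4X and 0.71 in 2X, and 5 of the 8 were above it in each ploidy. The widest ranges were 2.75 for VIT_05s0094g00360 in 4X and 2.62 for VIT_05s0094g00340 in 2X, and VIT_03s0088g00810 had a range of 1.97 in 4X and 0.85 in 2X. The spread was therefore not confined to 4X.

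**Figure D4:**
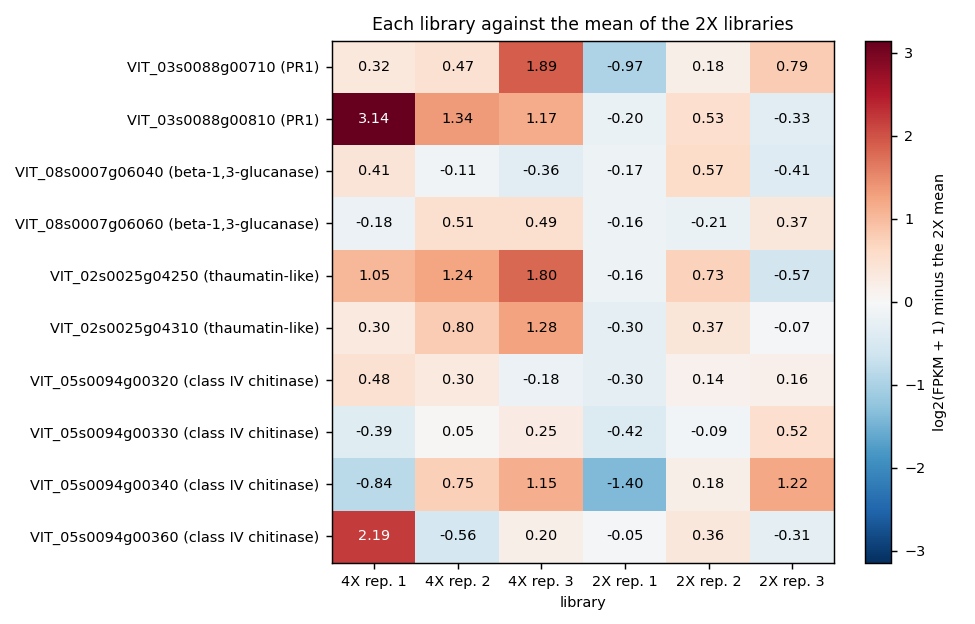
Log2(FPKM + 1) of each of the 10 genes in each library minus its mean over the 2X libraries, red where higher and blue where lower. The 4X replicate 1 column holds the highest values, 3.14 for VIT_03s0088g00810 and 2.19 for VIT_05s0094g00360, and a low one of -0.84 for VIT_05s0094g00340, while both thaumatin-like genes are highest in 4X replicate 3.

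4X replicate 1 stood apart from the other 4X libraries in both directions. On the log2 scale it was 1.89 above the mean of 4X replicates 2 and 3 for VIT_03s0088g00810, and 99.3% of the genes tested had a lower difference. The chitinase VIT_05s0094g00360 was 2.37 above, beyond 99.7% of genes, and the glucanase VIT_08s0007g06040 was 0.65 above, beyond 93.3% of genes. At the other end, VIT_05s0094g00340 had a difference of -1.79, with only 0.375% of genes lower, and VIT_03s0088g00710, VIT_08s0007g06060, VIT_02s0025g04250 and VIT_02s0025g04310 had differences between -0.86 and -0.47, with 2.68% to 8.75% of genes lower. So 3 of the 8 were in its upper tail and 5 in its lower tail. Without this library limma called 0 of the 8, and 754 of the 18119 genes tested (4.16%). At so small a share, 0 of 8 does not set these genes apart. The median log2 fold change was then 0.99 over the 8 genes and 0.03 over all genes. When limma gave each library its own weight, 4X replicate 3 received 5.11 and 4X replicate 1 received 0.306. That fit called VIT_03s0088g00710, VIT_03s0088g00810, VIT_08s0007g06060, VIT_02s0025g04250 and VIT_02s0025g04310 higher in 4X, 5 of the 8, where 12.5% of all genes tested were called higher. Their adjusted p in limma with these weights lay between 0.0121 for VIT_02s0025g04250 and 0.0322 for VIT_03s0088g00810, so these calls depend on the weights given to the libraries.

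Across the 6 libraries the genes did not form 1 common pattern. Of the 45 pairs among the 10 genes, 4 had a Pearson correlation above 0.8 and 16 were below 0, and each correlation rests on the same 6 libraries. The thaumatin-like pair was among the 4, and the others joined VIT_05s0094g00340 to VIT_05s0094g00330 at 0.94, to VIT_08s0007g06060 at 0.83 and to VIT_03s0088g00710 at 0.82. VIT_03s0088g00810 was nearest to VIT_05s0094g00360, at 0.79, with which it shares the high value in 4X replicate 1. The PR1 pair had a correlation of 0.23. The genes outside the families whose pattern was most like the mean standardized level of the 8 genes tested were VIT_12s0028g01130, VIT_00s2871g00010 and VIT_05s0029g00650, with correlations of 0.9997, 0.998 and 0.998 over the 6 libraries. They carry no name in the sources used here. The mean profile itself was higher in every 4X library than in any 2X library, so the choice by likeness fixed the same direction for these genes, whose log2 fold changes of 0.50, 0.35 and 0.25 are a description.

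Other defence genes and the ethylene gene ACO1, 6 genes picked from those with PCR primers in the study, were set beside these families. The study chose them with these libraries known, so their direction is not independent evidence. Of the 6, HCHIB (a basic chitinase in Arabidopsis), PR-4 and PR-4B (hevein-like proteins in Arabidopsis), GLIP2 (a GDSL lipase) and ACO1 (an ethylene-forming oxidase) were tested and 0 of these 5 were called, 4 were higher at an unadjusted p under 0.05, and the median log2 fold change was 1.45. Over all genes tested 0.0883% were called, 7.79% were higher at that p, and the median was 0.01. GLIP1, the remaining one, was under the limit for testing, with 0.864, 0.949 and 1.48 FPKM in 4X and 0.124, 0.390 and 0.127 FPKM in 2X.

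PR-4 (VIT_14s0081g00030) had 230, 145 and 176 FPKM in 4X replicates 1, 2 and 3, against 60.3, 104 and 70.6 FPKM in 2X replicates 1, 2 and 3. The ploidies did not overlap, and its log2 fold change was 1.23 (SE 0.24) with an adjusted p of 0.124 in limma. PR-4B (VIT_14s0081g00020) had 9.41, 7.28 and 5.61 FPKM in 4X, against 3.08 and 4.78 FPKM in 2X replicates 1 and 2 and a listed 0 in 2X replicate 3. Its adjusted p was 0.329 in limma, with the listed 0 counted as a value. Both had their highest value in 4X replicate 1, as VIT_03s0088g00810 did, but by a smaller margin.

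HCHIB (VIT_03s0038g03400) had 79.2, 29.2 and 67.2 FPKM in 4X replicates 1, 2 and 3, against 17.5, 33.9 and 11.5 FPKM in 2X replicates 1, 2 and 3. Its ploidies overlapped in 4X replicate 2 and 2X replicate 2, and the log2 fold change was 1.45 (SE 0.47) with an adjusted p of 0.248 in limma. GLIP2 (VIT_09s0002g00570) had 64.8, 20.5 and 23.2 FPKM in 4X, against 32.1, 23.9 and 17.4 FPKM in 2X. Like VIT_05s0094g00360 it was high in 4X replicate 1 alone, and its log2 fold change of 0.39 was -0.12 without that library. ACO1 (VIT_11s0016g02380) had a log2 fold change of 2.26 with an adjusted p of 0.0573 in limma, which was 0.0190 without 4X replicate 1.

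**Figure D5:**
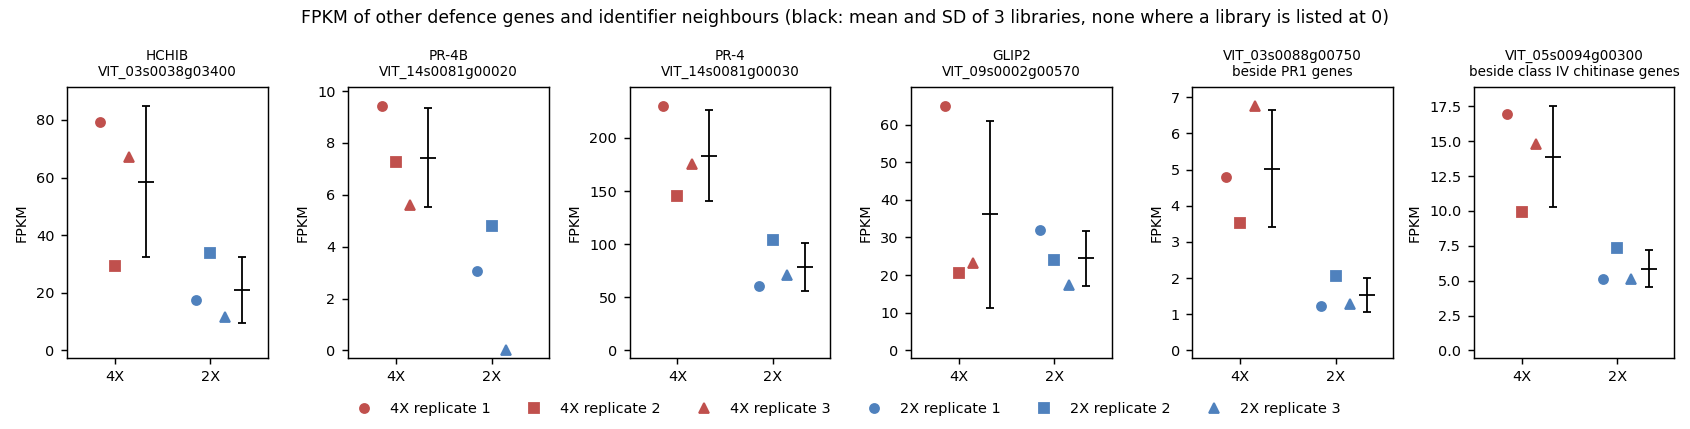
FPKM (vertical axis, a scale of its own in each panel) of HCHIB, PR-4B, PR-4, GLIP2 and the identifier neighbours VIT_03s0088g00750 and VIT_05s0094g00300 in the 3 4X libraries (red) and the 3 2X libraries (blue), with the mean and SD in black where no library is listed at 0. PR-4, PR-4B and both neighbours lie higher in every 4X library, and lack of overlap was part of the choice of the neighbours. GLIP2 is high in 4X replicate 1 alone, at 64.8 FPKM.

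Lists of genes increased in 4X, by gene ontology term, were taken from the study's supplement. The lists were drawn from the same libraries, so their direction is no independent evidence either, and they hold 2 of the 10 genes. VIT_03s0088g00810 is 1 of 22 genes under extracellular region, of which 0 were called, 13 were higher at an unadjusted p under 0.05 and 11 did not overlap, with a median log2 fold change of 0.99. Without 4X replicate 1, 4 of the 22 were called higher and 3 lower in limma. The 3 lower ones, VIT_11s0052g01180, VIT_11s0052g01200 and VIT_11s0052g01280, had log2 fold changes of -0.50, -0.77 and -0.64 with all libraries and of -1.88, -2.28 and -2.15 without that one. VIT_05s0094g00360 is 1 of 5 genes under cell wall macromolecule catabolic process, with HCHIB and the neighbouring VIT_05s0094g00300, of which 0 were called and 4 were higher at an unadjusted p under 0.05, VIT_05s0094g00360 not among them. Under the 4 terms of salicylic and jasmonic acid there were 18 genes, none of the 10 among them, of which 0 were called and 14 were higher at an unadjusted p under 0.05, with a median log2 fold change of 0.64. Over all genes tested 7.79% were higher at that p and 11.2% had all 4X values above all 2X values, and each of these lists was chosen for being higher.

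Genes of these families often lie in tandem, so genes with an identifier number within 100 of any of the 10 were read as neighbours. Of 82 such genes, 24 were at 0 in all libraries and 49 were tested, with 0 called, 12 higher and 2 lower at an unadjusted p under 0.05, and a median log2 fold change of 0.13. Over all genes tested 7.79% were higher and 6.53% lower at that p. All 4X values were above all 2X values in 12 of the 49 and below them in 5. Over all 18119 genes tested these counts were 2029 (11.2%) and 1604. Most neighbours named below were chosen for a low p without overlap, so their separation is no result of its own. Without 4X replicate 1, limma called 2 neighbours higher and 1 lower. Around the PR1 genes, 10 of 19 neighbours were at 0 throughout and 7 were tested. The most abundant of the 7 was VIT_03s0088g00680, named after its values were seen. It had 316, 618 and 552 FPKM in 4X replicates 1, 2 and 3, against 494, 270 and 758 FPKM in 2X replicates 1, 2 and 3. The ploidies overlapped, and its log2 fold change was 0.03 with an adjusted p of 0.987 in limma. The neighbour called lower without 4X replicate 1 was VIT_03s0088g00620, named here after its values were seen. It had 90.7, 30.3 and 32.9 FPKM in 4X replicates 1, 2 and 3, against 77.8, 73.7 and 92.1 FPKM in 2X replicates 1, 2 and 3. 4X replicate 1 was at the level of 2X, and the log2 fold change of -0.83, with an adjusted p of 0.403 in limma, was -1.33 with an adjusted p of 0.00655 without that library. VIT_03s0088g00750, which lies between the PR1 genes by number, had 4.79, 3.53 and 6.74 FPKM in 4X replicates 1, 2 and 3, against 1.23, 2.06 and 1.27 FPKM in 2X replicates 1, 2 and 3, with a log2 fold change of 1.24 with an adjusted p of 0.124 in limma. Its lack of overlap was part of the rule that named it. It did not have the high value in 4X replicate 1 that VIT_03s0088g00810 had. The gene is also under extracellular region in the study's lists of increased genes, so its direction is no independent evidence.

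Beside the chitinases, VIT_05s0094g00300 had 17.0, 9.94 and 14.8 FPKM in 4X replicates 1, 2 and 3, against 5.11, 7.37 and 5.11 FPKM in 2X replicates 1, 2 and 3. Its ploidies did not overlap, which the rule that named it required. Its log2 fold change was 1.10 with an adjusted p of 0.131 in limma. VIT_05s0094g00430 had a smaller log2 fold change, 0.30, with an adjusted p of 0.330 in limma. Near the thaumatin-like genes 21 neighbours were tested, and they went both ways. At an unadjusted p under 0.05 in limma, 5 were higher and 1 was lower. All 4X values were above all 2X values in 5 and below them in 3. VIT_02s0025g04200 and VIT_02s0025g04270 had log2 fold changes of 0.89 and 0.49 with adjusted p of 0.213 and 0.173 in limma, both without overlap by the rule that named them. VIT_02s0025g04330, also named after its values were seen, had 186, 373 and 374 FPKM in 4X replicates 1, 2 and 3, against 155, 137 and 223 FPKM in 2X replicates 1, 2 and 3. It overlapped through 4X replicate 1, and its log2 fold change of 0.81, with an adjusted p of 0.305 in limma, was 1.15 with an adjusted p of 0.0399 without that library.

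Near the glucanases the neighbours also went both ways. VIT_08s0007g06080 had 2.19, 2.51 and 1.50 FPKM in 4X replicates 1, 2 and 3, against 4.69, 3.37 and 4.28 FPKM in 2X replicates 1, 2 and 3, a log2 fold change of -0.74 with an adjusted p of 0.179 in limma. VIT_08s0007g05990 had 20.5, 17.1 and 21.3 FPKM in 4X, against 11.5, 12.5 and 11.1 FPKM in 2X, with a log2 fold change of 0.69, whose adjusted p of 0.09995 in limma was 0.0483 without 4X replicate 1. VIT_05s0094g00300 and VIT_03s0088g00750 have a gene ontology term in the study's lists of increased genes. The neighbours named here otherwise carry no description in the sources used, so whether they belong to the same families is unknown.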

How the data were processed

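RNA-Seq libraries of terminal buds, 3 of each ploidy, were grouped as 4X and 2X by the sample labels. The authors trimmed reads with the FASTX-Toolkit and mapped them with TopHat to the Ensembl Plants grapevine genome, and the submitters' processing notes name TopHat2 2.0.14 and Cufflinks 2.2.1. The deposited table holds FPKM for 29971 genes, and 0 columns of values were left out. The genome build, strand handling, assignment of reads that fit several genes and any scaling between libraries were not given in the sources used here. The FPKM summed to between 1028190 and 1125410 per library, and 17816 to 18058 genes had at least 1 FPKM. The depth behind a value is unknown, so no interval for counting error is given, and the number of libraries limits the precision.

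Cufflinks tests need the reads, so log2(FPKM + 1), with a pseudocount of 1, was tested with limma 3.58.1 in R 4.3.3 with a variance trend, equal weights and a two-sided test. The 18119 genes that averaged 1 FPKM or more across the 6 libraries entered the test, p-values were adjusted by the Benjamini-Hochberg method over all of them, and a gene was called under 0.05. The filter was kept when a library was left out. The script was tested on simulated data with the same spread in every library. That test does not cover a deviating library such as 4X replicate 1. The 10 genes and all lists were chosen with earlier results of these data known. Genes named by rule are the 10, 6 defence and ethylene genes picked from the study's primer table, and the 3 genes nearest in pattern. Up to 2 neighbours a family were also named by rule. They had the largest absolute log2 fold changes among neighbours at an unadjusted p under 0.05 whose ploidies did not overlap. Outside this rule, the neighbours VIT_03s0088g00620, VIT_03s0088g00680 and VIT_02s0025g04330 were named after their values were seen. So were VIT_11s0052g01180, VIT_11s0052g01200 and VIT_11s0052g01280. A neighbour shares the scaffold number of the identifier and has a gene number within 100. Family and gene names come from the list of the 10 genes and the paper's tables, since 0 of the 29971 identifiers matched the reference table of gene names, and chromosomes were read from the identifiers. Alternatives were a pseudocount of 0.1, no filter, a filter on either ploidy, median scaling, quantile normalization, no trend, array weights, the replicate number as a block, ratios of medians and leaving out each library. Summaries used Python 3.11.15, pandas 2.3.3 and numpy 2.4.6, and plots matplotlib 3.10.9.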

Additional observations from a re-analysis of the deposited data

How the results depend on the processing

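None of the 8 genes tested was called lower under any alternative run, and 0 were called higher except with array weights, which called 5 of them. VIT_05s0094g00320 and VIT_05s0094g00330 were tested only with no filter on low values, and were not called. The calls over all genes were 11 higher and 5 lower. Array weights gave 2271 and 1988, no filter on low values gave 0 and 0, and leaving out each library gave between 0 and 185 higher and between 0 and 569 lower, the most without 4X replicate 1. The log2 ratio of the summed PR1 level was 2.13, and between 1.22 without 4X replicate 1 and 2.45 without 4X replicate 3. Leaving out each library gave VIT_08s0007g06040 (-0.02) a log2 fold change between -0.24 and 0.26, with 0.26 without 2X replicate 2, 0.02 without 4X replicate 2 and 0.15 without 4X replicate 3. VIT_05s0094g00340 (0.35) lay between -0.35 without 2X replicate 1 and 0.96 without 2X replicate 3, with -0.05 without 4X replicate 3, and VIT_05s0094g00360 (0.61) between -0.18 without 4X replicate 1 and 1.19 without 4X replicate 2. For VIT_03s0088g00710 (0.90) a pseudocount of 0.1 gave 1.92 and array weights gave 2.05, and leaving out each library gave between 0.40 and 1.29. The cause of these shifts was not tested. Over the alternatives the adjusted p in limma ranged from 0.0322 to 0.573 for VIT_03s0088g00810, from 0.0121 to 0.551 for VIT_02s0025g04250 and from 0.0132 to 0.651 for VIT_02s0025g04310, and without array weights their lowest values were 0.0552, 0.0923 and 0.0709.

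The replicate number as a block gave 0 genes called higher and 0 lower, and 0 of the 8 tested. Deviations from the ploidy means correlated at -0.01, -0.05 and 0.09 between libraries of the same number, so the numbers were not taken to pair the libraries, and 4X replicate 2 correlated best with 2X replicate 1 (0.13). With no counts in the table, the precision of values near 0, as for VIT_05s0094g00320 and VIT_05s0094g00330, is unknown, and 3 libraries of a ploidy limit every comparison.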
